A study of Saccharomyces cerevisiae with 24 samples.

Results

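The 35 genes described here carry budding yeast (Saccharomyces cerevisiae) from sulfate to methionine, cysteine and S-adenosylmethionine (SAM), or regulate that route. They were chosen by gene name for their known roles, with earlier results of these data known, out of 7121 genes in the deposited expression table, and all 35 were among the 6449 genes tested. RNA was measured by poly(A)-selected, directional RNA sequencing in 24 libraries, 3 biological replicates in each of 8 groups. The starvation groups, sampled at 48 h of culture, are hsh49::Q24P starvation, nam8D starvation, mud1D starvation and WT starvation, and the log phase groups are hsh49::Q24P log, nam8D log, mud1D log and WT log. In hsh49::Q24P the splicing factor Hsh49 of the U2 snRNP carries a point change, and nam8D and mud1D lack the U1 snRNP proteins Nam8 and Mud1. Each genotype is 1 strain in the BY background (JPY2863, JPY28H5, JPY28A8 and JPY10H3 for hsh49::Q24P, nam8D, mud1D and WT), so a mutation and its strain cannot be told apart. All cultures grew in SD medium with histidine, leucine, uracil, lysine and 2% glucose. The labels name neither methionine in the medium nor the cell density at sampling. The comparisons ask how starvation changes these genes in each genotype and how each mutant differs from WT in each growth state.

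Yeast takes up sulfate, activates it with ATP, reduces it through sulfite to sulfide, and joins the sulfide to O-acetylhomoserine to make homocysteine. Homocysteine is methylated to methionine or turned into cysteine through cystathionine, and methionine is activated to SAM, the main methyl donor of the cell, which gives back homocysteine after each methyl transfer. The activator Met4 switches on most of these genes. It does not bind DNA well by itself and is brought to promoters by Cbf1 with Met28, or by the zinc-finger proteins Met31 and Met32. When sulfur is plentiful the ubiquitin ligase subunit Met30 holds Met4 in check.

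The known DNA cores of these regulators were searched in the 500 bases before each coding start in the R64 reference genome, on both strands. The Cbf1 core CACGTG, which reads the same on both strands, lay in the windows of 22 of 35 members (62.9%), against 6.23% of all 5990 promoter windows. Its longer form TCACGTG, which contains the first core, lay in 21 members (60%), against 4.56% of all windows. The Met31 and Met32 core AAACTGTG lay in 14 members (40%), against 2.7%. The windows of MMP1 and MHT1 share the same AAACTGTG site, in chrXII:17774-17803, which counts for both. Both CACGTG and AAACTGTG lay in 10 members (28.6%), against 0.434%, and TGACTC, the core of the amino acid regulator Gcn4, in 11 members (31.4%), against 12.7%. CACGTG stood before 9 of 10 genes of sulfate uptake and reduction, 6 of 12 of methionine and cysteine synthesis and uptake, 2 of 7 of the SAM cycle and 5 of 6 regulators. Neither CACGTG nor AAACTGTG lay in the windows of SUL1, MET7, MET12, MET13, STR2, STR3, SAM3, SAM4 and MET31, which says only that these letters are absent there. The sites below, each 30 bases on the strand of its gene with the core in capitals, show the cores in genes of each step, most of them called higher in all 3 starved mutants than in starved WT. SAM2 and MET28 are shown beside them, SAM2 as the paralog of SAM1 and MET28 as a regulator. Not every site is printed: SUL2 holds another CACGTG and MET28 also holds AAACTGTG.
SUL2, chrXII:323198-323227, plus strand: tggagtaaatgtCACGTGccactgtggccg
MET16, chrXVI:877793-877822, minus strand: ttatcatcatttCACGTGgctagtaaaaga
MET14, chrXI:439596-439625, minus strand: tgccactaatttCACGTGatcaatatattt
MET2, chrXIV:116984-117013, plus strand: ttgacgtattttCACGTGatgcgcctcact
MET17, chrXII:732230-732259, plus strand: aatggcaaatggCACGTGaagctgtcgata
MET17, chrXII:732310-732339, plus strand: catcctcatgaAAACTGTGtaacataataa
MUP1, chrVII:598943-598972, plus strand: gcatccgccacCACAGTTTtttttagcgtc
SAM1, chrXII:514974-515003, plus strand: ttttcacaggaAAACTGTGgtggcgccctt
SAM2, chrIV:1454770-1454799, minus strand: aatatttctaccCACGTGactataattgag
SAM2, chrIV:1454746-1454775, minus strand: attgagcttgaAAACTGTGgcgtttttcca
MET28, chrIX:384321-384350, minus strand: gggtactgagtgCACGTGacttattttttt
The MUP1 line reads the Met31 and Met32 core on the opposite strand, as CACAGTTT. SAM2 holds CACGTG 323 to 318 and AAACTGTG 300 to 293 bases before its coding start, and SAM1 holds only AAACTGTG, 277 to 270 bases before. A match is a run of letters and not evidence of binding.

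Values are in TPM, the transcript level scaled by gene length and by the total of each library. Differences are on the log2(TPM + 1) scale with their standard error (SE), and a gene is called changed where the limma adjusted p is below 0.05 and the difference reaches 1 or -1. TPM keeps no record of read number, so the depth is unknown, and in these bulk cultures fewer cells with a transcript and less of it per cell cannot be told apart. NAM8 stood at or below 0.258 TPM in nam8D and MUD1 at or below 4.74 TPM in mud1D, while HSH49 was present in hsh49::Q24P. LEU2 stood at or below 30.8 TPM in the nam8D, mud1D and hsh49::Q24P starvation libraries and between 3979 and 5907 TPM in the 6 WT libraries. In hsh49::Q24P log it stood at 466, 118 and 63 TPM. Each result that rests on those libraries was therefore recomputed without the first and the second of them. That fit leaves 1 library in the group, which still holds LEU2. URA3 was listed at 0 in every nam8D, mud1D and hsh49::Q24P starvation library and stood at 3.68 TPM or more in WT. In hsh49::Q24P log it stood at 0.459, 0.075 and 0.0391 TPM, in the same order of libraries as LEU2, and whether those libraries hold RNA of another strain was not tested. WT and mutants differ in these genes, so the mutations cannot be told apart from the marker genes. HIS3 and LYS2 were listed at 0 in every library, and MET17, a marker in some BY strains and a member here, was expressed in every group.

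Relative to log phase, starvation raised 11 of the 35 members (31.4%) and lowered 7 (20%) in hsh49::Q24P, while among all tested genes 28.5% rose and 14.1% fell. In nam8D 12 (34.3%) rose and 5 (14.3%) fell, against 27.4% and 10.3% of all genes, and in mud1D 12 (34.3%) rose and 7 (20%) fell, against 28.2% and 14.9%. WT had another balance: 6 members (17.1%) rose and 15 (42.9%) fell, against 26.2% and 9.01% of all genes. In WT the falls ran through sulfate activation, homocysteine formation, methionine uptake and SAM synthesis, and 4 of the 6 rises were regulators. The mutants' shares lie closer to those of all genes than the WT shares do. The median member differed by 0.13, 0.52, 0.11 and -0.18 in hsh49::Q24P, nam8D, mud1D and WT, and the median gene by 0.39, 0.43, 0.36 and 0.47. The split between rises and falls depends on the scaling. With the median gene set equal in every library it became 7 higher and 9 lower in hsh49::Q24P, 10 and 6 in nam8D, 7 and 8 in mud1D, and 2 and 15 in WT. When spike-in RNAs of unknown amount set the scale of each library, it became 2 higher and 16 lower in hsh49::Q24P, 6 and 13 in nam8D, 6 and 15 in mud1D, and 4 and 15 in WT. That scaling puts the median gene at -0.63, -0.54, -0.42 and 0.20 in the same order. Of 6449 genes it called 524 higher and 2367 lower in hsh49::Q24P and 501 and 2153 in nam8D. In mud1D it called 677 and 2023, and in WT 1107 and 817. Setting the median gene equal called 1253 and 1278, 1017 and 1149, 1209 and 1334, and 845 and 1038 genes in the same order.

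**Figure D1:**
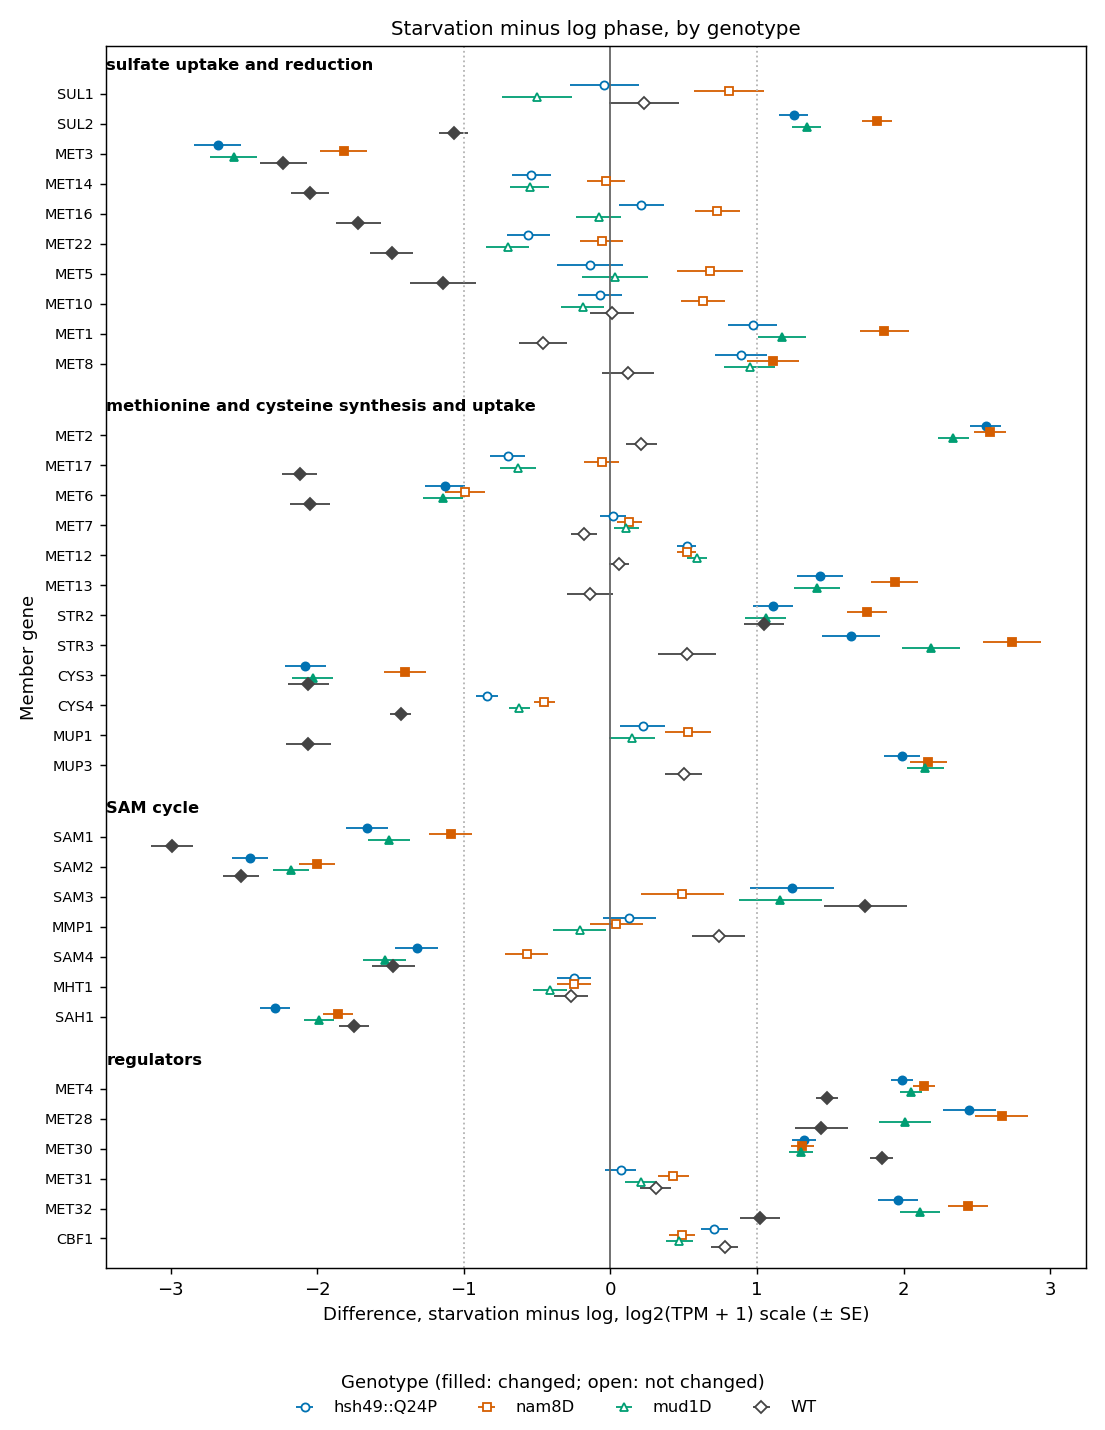
Difference between starvation and log phase for each of the 35 members (rows, by step) in each genotype, on the log2(TPM + 1) scale with its SE. Filled symbols are called changed, open symbols are not, and dotted lines mark a difference of 1. SUL2 alone is called lower in WT and higher in the mutants.

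The members called different between starved genotypes were nearly all higher in the mutants. Against starved WT cells, 11 of 35 members (31.4%) were higher in hsh49::Q24P and none lower, against 3.94% and 7.41% of all genes. In nam8D 14 (40%) were higher and 1 lower, against 4.39% and 7.86%, and in mud1D 11 (31.4%) were higher and none lower, against 4.57% and 8.87%. The same 11 members were higher in all 3 mutants: SUL2, MET14, MET16 and MET1 of sulfate assimilation, MET2, MET17, MET13, STR3, MUP1 and MUP3 of methionine synthesis and uptake, and SAM1. The 3 mutant comparisons share the WT libraries and are not independent. The median member was higher than in WT by 0.56, 0.83 and 0.53 in hsh49::Q24P, nam8D and mud1D, while the median gene stood at -0.09, -0.03 and -0.10. For 20 of 35 members every mutant starvation library was above every WT starvation library, which held for 19.4% of all genes. For MMP1 and MET30 every mutant library was below, which held for 26.3% of all genes. With the median gene set equal the counts were 11 and 0 in hsh49::Q24P, 14 and 1 in nam8D, and 11 and 0 in mud1D, higher and lower. Spike-in scaling puts the median gene of the mutants at -0.47, -0.42 and -0.29. The member counts were then 5 and 3, 11 and 3, and 10 and 1. Of 6449 genes that scaling called 99 higher and 1110 lower, 132 and 1063, and 161 and 839 in the same order. With it SUL2, MET16, MET2, MET13 and MUP1 were still higher in all 3 mutants. Setting the median gene equal called 345 and 379, 315 and 451, and 376 and 453 genes. CACGTG lay in the windows of 7 of the 11 members called higher in all 3 mutants (63.6%) and of 15 of the 24 other members (62.5%). For TCACGTG the counts were 7 (63.6%) and 14 (58.3%), for AAACTGTG 5 (45.5%) and 9 (37.5%), and for TGACTC 5 (45.5%) and 6 (25%). These splits were not tested.

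**Figure D2:**
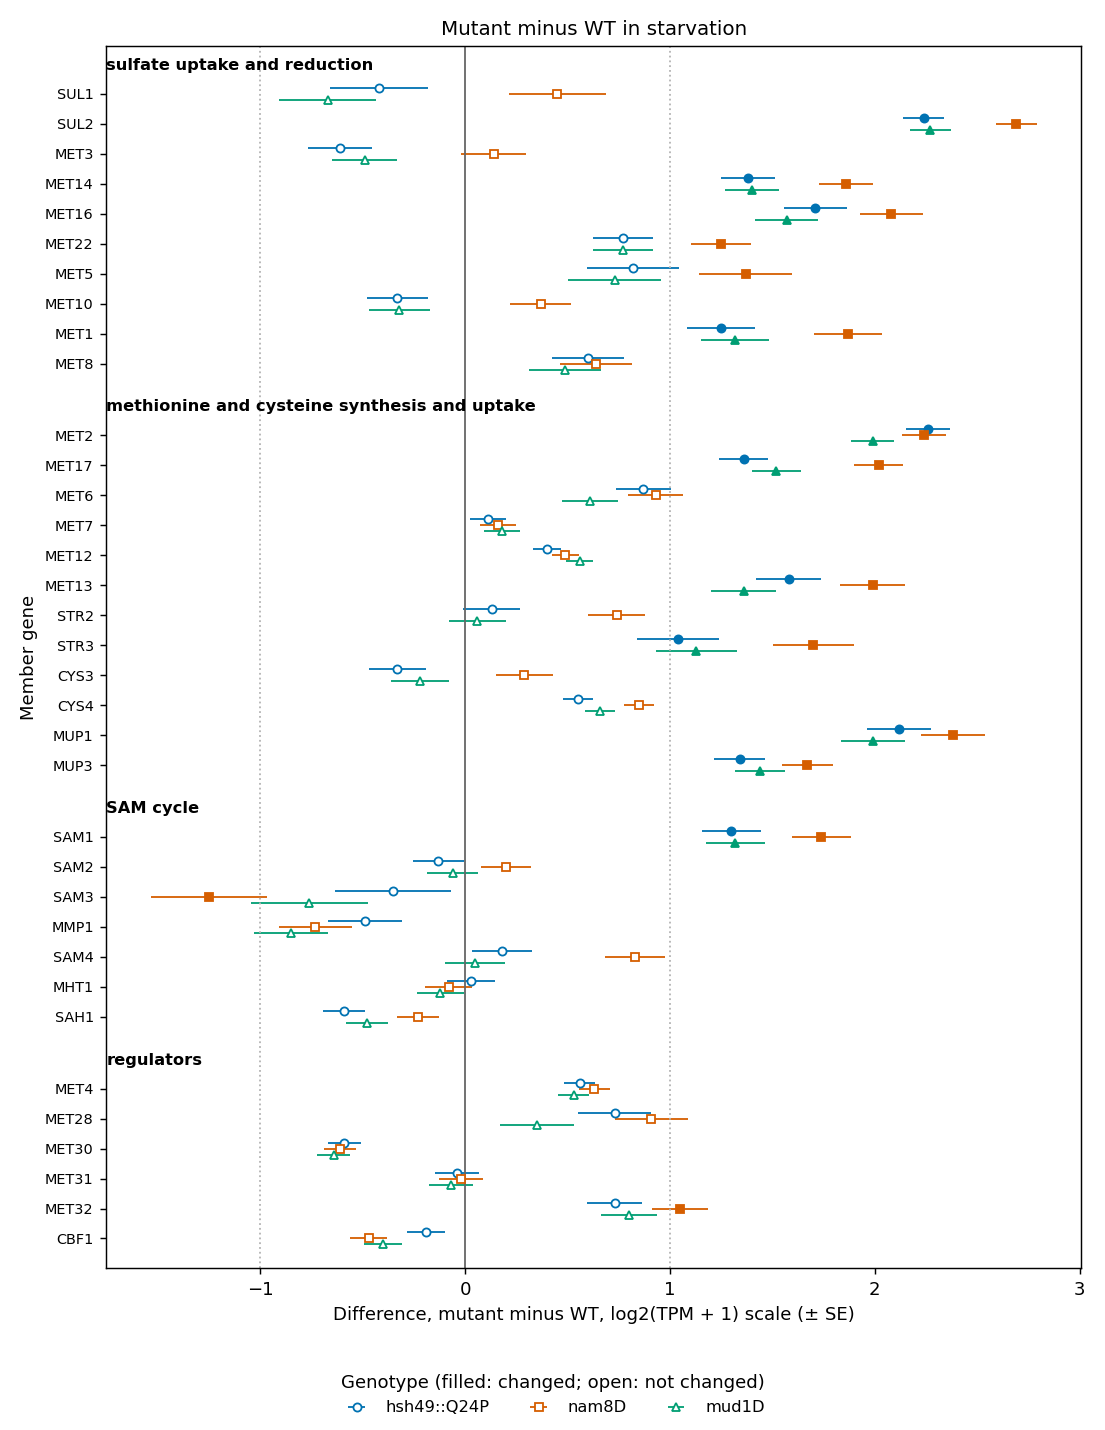
Difference between each mutant and WT in starvation for each member, on the log2(TPM + 1) scale with its SE. Filled symbols are called changed and open symbols are not; 11 members are filled in all 3 mutants, and SAM3 in nam8D is the only filled symbol left of 0.

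The difference between the starvation response of a mutant and that of WT was tested directly. It was called higher for 13 members and lower for none in hsh49::Q24P, against 3.35% and 7.88% of all genes, for 16 and 1 in nam8D, against 4.22% and 8.76%, and for 13 and 0 in mud1D, against 3.99% and 9.57%. The 11 members above and MET5 were called in all 3 mutants, and SAM3 in nam8D was the member called lower. MET5 was at the threshold in hsh49::Q24P, at 1.00, and stood at 0.93 with a pseudocount of 5, not called. With the median gene set equal the counts were 16 and 0, 18 and 1, and 14 and 0 in hsh49::Q24P, nam8D and mud1D. With spike-in scaling they were 4 and 7, 11 and 4, and 7 and 4. SUL2, MET16, MET2 and MUP1 were then still called in all 3 mutants. Of 6449 genes, spike-in scaling called 55 higher and 2568 lower, 85 and 2128, and 84 and 1822 in the same order. It puts the median gene at -0.86, -0.74 and -0.65. Setting the median gene equal called 314 and 386, 304 and 515, and 362 and 467 genes. Without the first and second hsh49::Q24P log library the hsh49::Q24P counts were 15 and 0.

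In log phase no member was called different between a mutant and WT. The limma test called none of 35 in hsh49::Q24P, nam8D or mud1D, while 0.109%, 0.124% and 0.31% of all genes were called. Without the size threshold it also called no member, against 0.465%, 0.295% and 0.915% of all genes. At an unadjusted p under 0.05 there were 1, 6 and 5 members, out of 358, 608 and 534 genes. The differences lay between -0.30 (CYS3) and 0.20 (MET31) in hsh49::Q24P, between -0.52 (STR3) and 0.04 (STR2) in nam8D, and between -0.54 (STR3) and 0.12 (SAM4) in mud1D. They were mostly small and negative, below 0 for 27, 31 and 27 of 35 members in hsh49::Q24P, nam8D and mud1D. The median member stood at -0.087, -0.151 and -0.138 and the median gene at 0.028, -0.001 and 0.031. MET28 and CBF1 were lower in all 9 mutant log libraries than in all 3 WT log libraries, which held for 0.961% of all genes, and no member was above WT in all 9, which held for 1.44%. MET28 differed by -0.28 ± 0.18, -0.32 ± 0.18 and -0.22 ± 0.18 (SE) and CBF1 by -0.12 ± 0.0908, -0.17 ± 0.0908 and -0.09 ± 0.0908 in hsh49::Q24P, nam8D and mud1D, below what the test calls. A fit without the first and second hsh49::Q24P log library leaves 1 library in that group and cannot decide whether a member differs.

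Among the 10 genes of sulfate uptake and reduction, starvation raised 1 and lowered 1 in hsh49::Q24P, raised 3 and lowered 1 in nam8D, raised 2 and lowered 1 in mud1D, and raised none and lowered 6 in WT. Of all genes 28.5%, 27.4%, 28.2% and 26.2% rose in hsh49::Q24P, nam8D, mud1D and WT, and 14.1%, 10.3%, 14.9% and 9.01% fell. Of these 10 members only MET3, the ATP sulfurylase that activates sulfate, fell in all 4 genotypes. In starvation it stood at 53.6, 45.3 and 39.5 TPM in hsh49::Q24P, 101, 67 and 69.7 TPM in nam8D, 45.9, 46.9 and 57.7 TPM in mud1D, and 72.6, 65.5 and 73.7 TPM in WT. Its log phase levels were 359, 264 and 285 TPM in hsh49::Q24P, 308, 249 and 278 TPM in nam8D, 255, 296 and 364 TPM in mud1D, and 309, 333 and 363 TPM in WT. No starvation library reached a log library, and the starvation differences were -2.68 ± 0.158 in hsh49::Q24P, -1.82 ± 0.158 in nam8D, -2.57 ± 0.158 in mud1D and -2.23 ± 0.158 in WT.

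SUL2, one of the pair of sulfate permeases, moved in opposite directions. In starvation it stood at 132, 112 and 106 TPM in hsh49::Q24P, 165, 156 and 159 TPM in nam8D, 113, 111 and 134 TPM in mud1D, and 23, 21.2 and 27.9 TPM in WT. The log libraries held 49.4, 51.4 and 44.5 TPM in hsh49::Q24P, 42.1, 47.8 and 43.8 TPM in nam8D, 43.4, 46.3 and 50.3 TPM in mud1D, and 50.7, 49 and 54.3 TPM in WT. Every mutant starvation library lay above every log library and every WT starvation library below them. SUL2 rose by 1.25 ± 0.1, 1.82 ± 0.1 and 1.34 ± 0.1 in hsh49::Q24P, nam8D and mud1D and fell by 1.07 on the log2 scale in WT. The WT value is near the threshold: it was -0.99 without the second WT starvation library. With spike-in scaling the rises were 0.14, 0.75 and 0.46 and not called, and with the median gene set equal the hsh49::Q24P and mud1D rises were 0.91 and 0.99, also not called. In starvation SUL2 was higher than in WT by 2.24 ± 0.1, 2.69 ± 0.1 and 2.27 ± 0.1 in the hsh49::Q24P, nam8D and mud1D strains, with limma adjusted p of 1.04e-12, 5.33e-14 and 7.02e-13.

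MET1, which makes the siroheme cofactor of sulfite reductase, stood in starvation at 127, 95.8 and 92.9 TPM in hsh49::Q24P, 216, 138 and 140 TPM in nam8D, 106, 106 and 117 TPM in mud1D, and 44, 37.8 and 48.2 TPM in WT. During log growth the levels were 63.6, 45.6 and 50.7 TPM in hsh49::Q24P, 48.9, 38.4 and 42.8 TPM in nam8D, 40.9, 46.8 and 58 TPM in mud1D, and 57.7, 60 and 61.8 TPM in WT. The mutant starvation libraries were all above the WT starvation libraries, by 1.25 ± 0.166, 1.87 ± 0.166 and 1.32 ± 0.166 in hsh49::Q24P, nam8D and mud1D. Against log phase MET1 rose in nam8D and mud1D, by 1.87 and 1.17, and stood at 0.97 in hsh49::Q24P and -0.46 in WT. The mud1D rise was 0.83 with the median gene set equal, and with spike-in scaling the nam8D and mud1D rises were 0.80 and 0.30, none of them called. Against starved WT the hsh49::Q24P value with spike-in scaling was 0.83, also not called. MET8, which also acts in siroheme synthesis, was rare, between 4.33 and 15.3 TPM in all libraries, and rose in nam8D starvation by 1.11 ± 0.176, or 0.98 without the second nam8D log library, 0.69 with the median gene set equal and 0.15 with spike-in scaling.

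The genes from activated sulfate to sulfite, MET14 and MET16, were higher in all 3 starved mutants than in starved WT. MET14, the kinase that makes PAPS, averaged 290 ± 35.3 TPM in hsh49::Q24P starvation, 405 ± 45.6 TPM in nam8D, 296 ± 41.1 TPM in mud1D and 111 ± 11.1 TPM in WT (SD, n = 3). In the mutants it differed from log phase by -0.54 ± 0.132, -0.03 ± 0.132 and -0.55 ± 0.132, under the size called, and in WT it fell by 2.05 on the log2 scale. MET16, the PAPS reductase, averaged 199 ± 30.6, 256 ± 39.1 and 179 ± 13.2 TPM in starved hsh49::Q24P, nam8D and mud1D cells and 59.9 ± 9.86 TPM in WT starvation. MET22, the phosphatase that clears the nucleotide left by that reaction, averaged 116 ± 26.1, 160 ± 23.7 and 114 ± 4.92 TPM in the starved mutants and 67.3 ± 12.9 TPM in starved WT, and was called higher in nam8D, by 1.25 ± 0.147, and stood at 0.82 with spike-in scaling, not called. MET14 stood at 0.95 in hsh49::Q24P against starved WT with that scaling, also not called.

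The sulfite reductase subunits did not move alike. MET5 fell in WT starvation by 1.14 on the log2 scale and was higher than WT in nam8D starvation by 1.37 ± 0.226, or 0.94 with spike-in scaling, not called. MET10 was called in no comparison, at 143 ± 26.1, 234 ± 50.1 and 143 ± 11.9 TPM in starved hsh49::Q24P, nam8D and mud1D cells and 178 ± 17.7 TPM in WT starvation. SUL1, the other sulfate permease, likewise did not pass the threshold between starvation and log phase in any genotype or between a mutant and WT. It stood at 255, 118 and 161 TPM in hsh49::Q24P starvation, 496, 223 and 269 TPM in nam8D, 141, 138 and 146 TPM in mud1D, and 220, 191 and 277 TPM in WT.

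Among the 12 genes of methionine and cysteine synthesis and uptake, starvation raised 5 and lowered 2 in hsh49::Q24P, raised 5 and lowered 1 in nam8D, raised 5 and lowered 2 in mud1D, and raised 1 and lowered 5 in WT. The shares of all genes, in the same order, were 28.5%, 27.4%, 28.2% and 26.2% raised and 14.1%, 10.3%, 14.9% and 9.01% lowered. MET2, the homoserine acetyltransferase that makes the carbon acceptor for sulfide, was among the members furthest apart. In starvation it stood at 365, 312 and 301 TPM in hsh49::Q24P, 355, 308 and 302 TPM in nam8D, 285, 241 and 288 TPM in mud1D, and 68.8, 62.7 and 70 TPM in WT. In log phase it stood at 55.2, 56.5 and 51.7 TPM in hsh49::Q24P, 44.2, 59.4 and 54.5 TPM in nam8D, 45.9, 56.8 and 55.5 TPM in mud1D, and 56.7, 60.2 and 56.8 TPM in WT. The lowest starved mutant library was well above the highest starved WT library. MET2 rose by 2.56 ± 0.106, 2.59 ± 0.106 and 2.34 ± 0.106 in hsh49::Q24P, nam8D and mud1D, while the difference in WT was 0.21 ± 0.106 with a limma adjusted p of 0.0755. Against starved WT it was 4.79-fold, 4.73-fold and 3.98-fold higher in hsh49::Q24P, nam8D and mud1D.

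MET17, the sulfhydrylase that joins sulfide to O-acetylhomoserine, averaged 802 ± 69.6 TPM in hsh49::Q24P starvation, 1270 ± 147 TPM in nam8D, 895 ± 83.7 TPM in mud1D and 312 ± 35.4 TPM in WT (SD, n = 3), among the most abundant members. The mutants differed from their log phase by -0.70 ± 0.12, -0.06 ± 0.12 and -0.63 ± 0.12, which is not called, and in WT it fell by 2.12 on the log2 scale. MET6, the methionine synthase, fell in hsh49::Q24P, mud1D and WT by 1.13, 1.14 and 2.05 and stood at -0.99 ± 0.135 in nam8D, at the edge of the threshold. Its starved levels averaged 513 ± 80.7, 536 ± 101 and 430 ± 58.2 TPM in starved hsh49::Q24P, nam8D and mud1D cells and 280 ± 33.7 TPM in WT, under the change called.

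The methylenetetrahydrofolate reductases, which supply the methyl group for methionine, split. MET13 averaged 184 ± 37.5, 245 ± 56.9 and 157 ± 29.9 TPM in starved hsh49::Q24P, nam8D and mud1D cells and 60.3 ± 9.36 TPM in WT starvation, and rose against log phase by 1.43 ± 0.159, 1.94 ± 0.159 and 1.41 ± 0.159 in the mutants. In WT its starvation difference was -0.14 ± 0.159. With spike-in scaling the mutant rises of MET13 were 0.32, 0.86 and 0.53, no longer called. MET12 was called in no comparison and stood between 76.3 and 140 TPM in all libraries. MET7, which lengthens the glutamate tail of folates, was also called in none and stood between 53.2 and 72.8 TPM.

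Of the genes that pass sulfur between cysteine and homocysteine, CYS3 was called lower and STR2 higher in all 4 genotypes. Against log phase CYS4 was called only in WT and STR3 only in the mutants. The STR2 calls depend on the scaling, as given below. CYS3, the cystathionine gamma-lyase that releases cysteine, stood in starvation at 47.6, 39.3 and 33.7 TPM in hsh49::Q24P, 70.1, 61.9 and 53.9 TPM in nam8D, 45.1, 38 and 46.6 TPM in mud1D, and 55, 41.3 and 55.9 TPM in WT. Its log phase levels were 187, 164 and 165 TPM in hsh49::Q24P, 176, 151 and 167 TPM in nam8D, 155, 168 and 221 TPM in mud1D, and 204, 220 and 213 TPM in WT. CYS3 fell in all 4 genotypes, by 2.08 in hsh49::Q24P, 1.40 in nam8D, 2.03 in mud1D and 2.06 in WT, and no mutant differed from starved WT by the test. CYS4, the enzyme before it, stood at -0.84 ± 0.0733, -0.45 ± 0.0733 and -0.62 ± 0.0733 in the mutants, not called, and fell by 1.43 in WT.

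STR3, the cystathionine beta-lyase that works from cysteine towards homocysteine, rose in the mutants. In starvation it stood at 128, 129 and 110 TPM in hsh49::Q24P, 275, 159 and 164 TPM in nam8D, 123, 128 and 140 TPM in mud1D, and 55.6, 50.9 and 71.5 TPM in WT. The log libraries held 50.3, 32.4 and 34.8 TPM in hsh49::Q24P, 31.9, 25.4 and 27.3 TPM in nam8D, 21.4, 27.9 and 35.4 TPM in mud1D, and 40.9, 38.7 and 42.8 TPM in WT. All starvation libraries exceeded the log libraries of their genotype, by 1.64 ± 0.198, 2.74 ± 0.198 and 2.19 ± 0.198 in hsh49::Q24P, nam8D and mud1D and by 0.52 ± 0.198 in WT, the last under the size called. With spike-in scaling the hsh49::Q24P value was 0.54. Against starved WT the hsh49::Q24P difference was 1.04 ± 0.198, and 0.94 without the second WT starvation library. With spike-in scaling the hsh49::Q24P and mud1D differences from starved WT were 0.62 and 0.92, not called. STR2, its partner in the same direction, rose in all 4 genotypes, by 1.11, 1.75, 1.06 and 1.05 in hsh49::Q24P, nam8D, mud1D and WT. The hsh49::Q24P value of STR2 was 0.96 without the first starvation library and 0.98 without the 2 log libraries with most LEU2, and with the median gene set equal the hsh49::Q24P, mud1D and WT values were 0.78, 0.72 and 0.58. With spike-in scaling the STR2 values were 0.00, 0.67, 0.19 and 0.76 in hsh49::Q24P, nam8D, mud1D and WT, none of them called.

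The methionine permeases also set the genotypes apart. MUP1, the high-affinity permease, averaged 292 ± 88.1 TPM in hsh49::Q24P starvation, 339 ± 17.7 TPM in nam8D, 259 ± 15.3 TPM in mud1D and 65.2 ± 13.9 TPM in WT (SD, n = 3). In the mutants it differed from log phase by 0.22 ± 0.156, 0.53 ± 0.156 and 0.15 ± 0.156, and in WT it fell by 2.06. MUP3, the low-affinity permease, averaged 74.1 ± 12.9, 92.3 ± 2.03 and 78.9 ± 7.87 TPM in starved hsh49::Q24P, nam8D and mud1D cells and 28.8 ± 6.27 TPM in WT starvation. It rose against log phase by 1.99 ± 0.124, 2.17 ± 0.124 and 2.15 ± 0.124 in the mutants and stood at 0.50 ± 0.124 in WT. Scaled to the spike-ins, the hsh49::Q24P rise of MUP3 was 0.90, and against starved WT the hsh49::Q24P differences of MUP3 and MET17 were 0.92 and 0.94, none of them called.

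**Figure D3:**
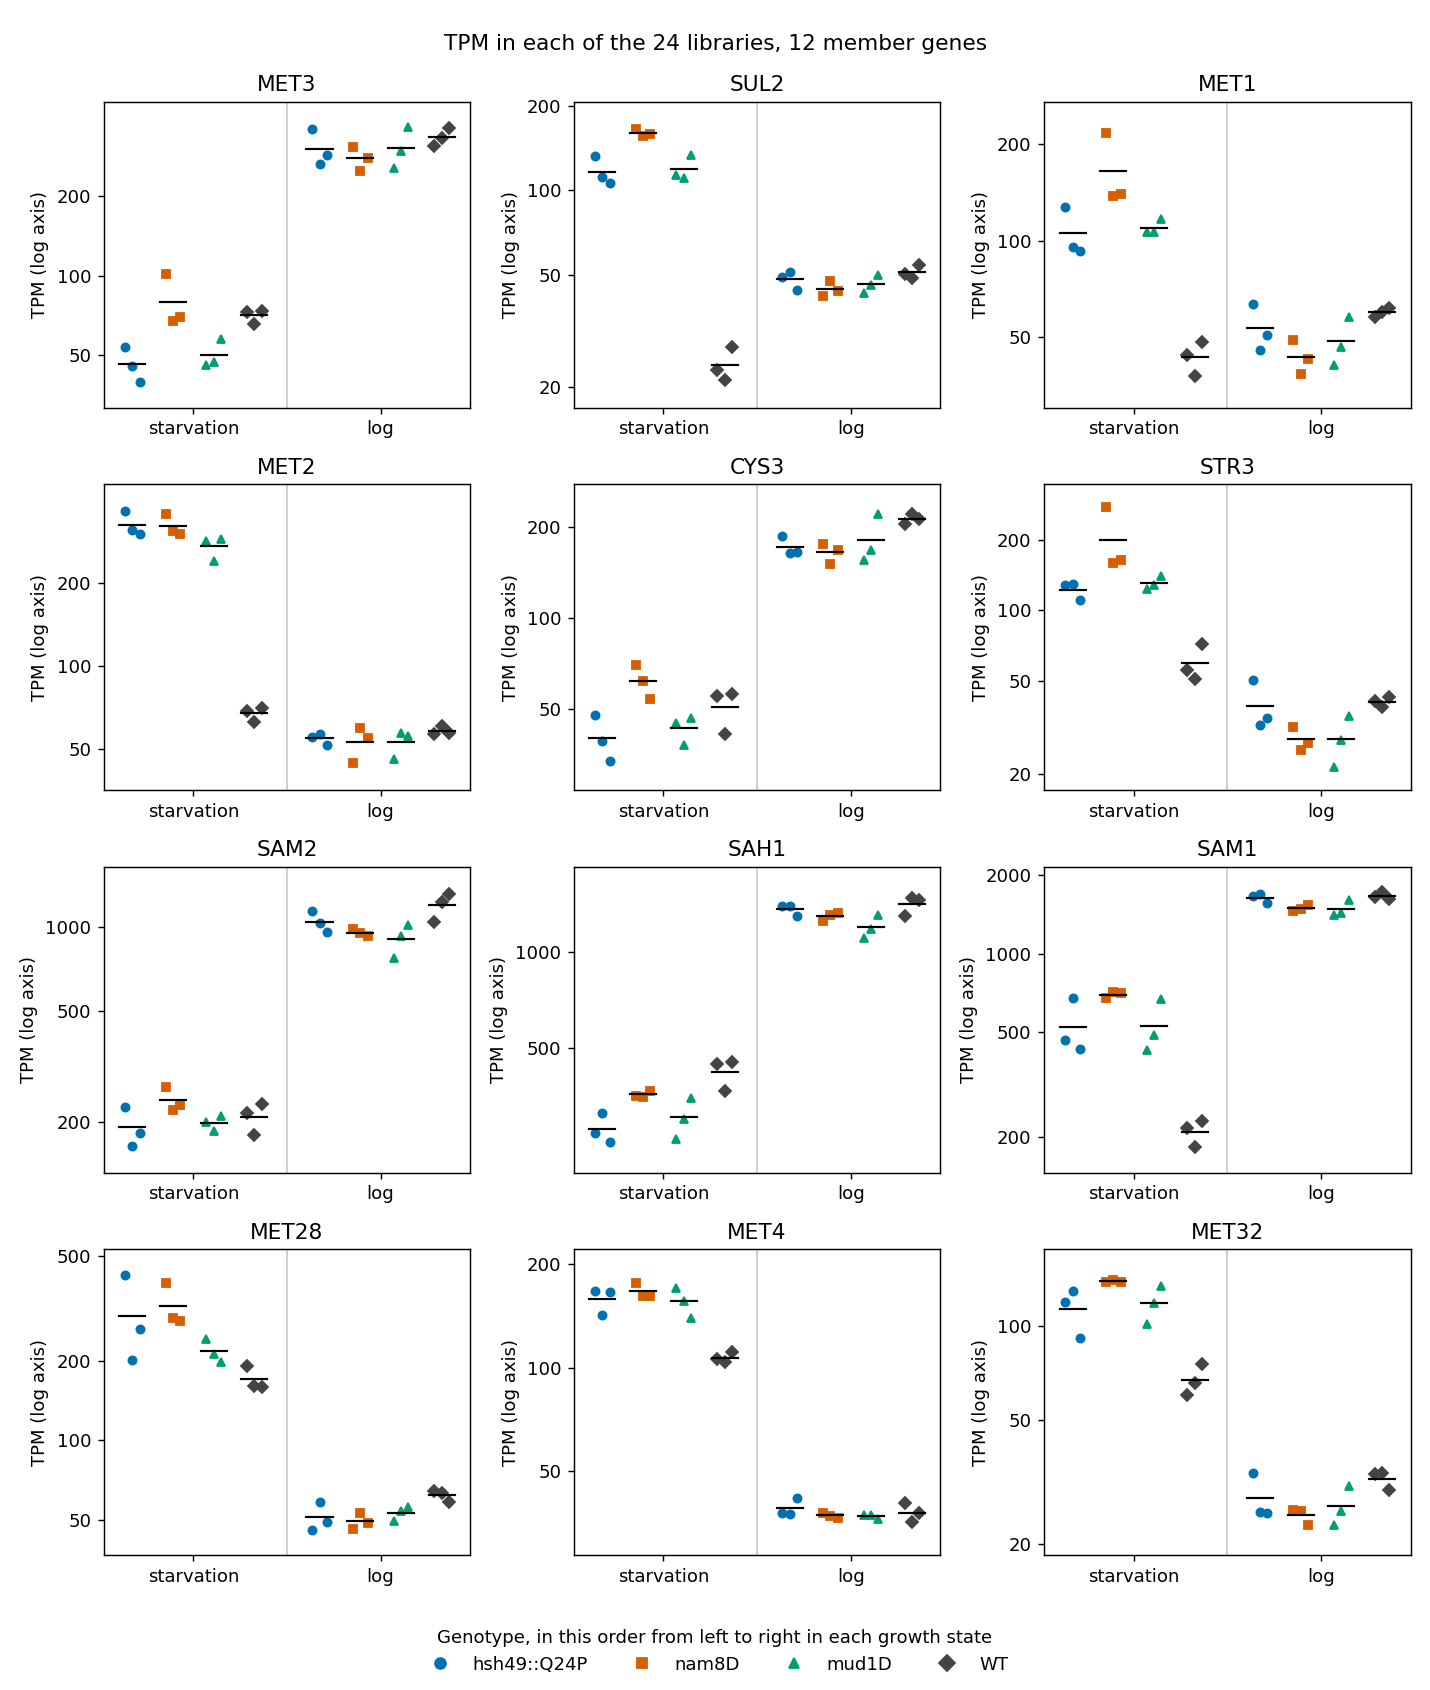
TPM of the 3 members of each step with the largest mean absolute starvation difference, in every library, on a log axis. Points are single libraries and bars are group means, with hsh49::Q24P, nam8D, mud1D and WT from left to right in starvation and then in log phase; SUL2, MET1, MET2, STR3, SAM1, MET4, MET28 and MET32 show every starved WT library below every starved mutant library.

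In the SAM cycle of 7 genes, 4 fell in hsh49::Q24P, mud1D and WT and 3 in nam8D, and SAM3 alone rose, outside nam8D. Among all genes 14.1%, 10.3%, 14.9% and 9.01% fell in hsh49::Q24P, nam8D, mud1D and WT, and 28.5%, 27.4%, 28.2% and 26.2% rose. SAM2, a SAM synthetase, stood in starvation at 226, 164 and 182 TPM in hsh49::Q24P, 267, 220 and 229 TPM in nam8D, 200, 185 and 209 TPM in mud1D, and 214, 179 and 231 TPM in WT. During log growth the levels were 1145, 1038 and 958 TPM in hsh49::Q24P, 986, 950 and 930 TPM in nam8D, 775, 928 and 1016 TPM in mud1D, and 1047, 1235 and 1316 TPM in WT. The starved libraries of each mutant overlapped those of WT, and SAM2 fell by 2.46, 2.00, 2.18 and 2.52 on the log2 scale in hsh49::Q24P, nam8D, mud1D and WT.

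SAM1, the other SAM synthetase, fell less in the mutants than in WT. In starvation it stood at 468, 678 and 430 TPM in hsh49::Q24P, 675, 710 and 707 TPM in nam8D, 429, 487 and 669 TPM in mud1D, and 215, 182 and 230 TPM in WT. In log phase it stood at 1659, 1681 and 1565 TPM in hsh49::Q24P, 1457, 1474 and 1532 TPM in nam8D, 1402, 1433 and 1605 TPM in mud1D, and 1645, 1714 and 1621 TPM in WT. SAM1 fell by 1.66, 1.09, 1.51 and 2.99 in hsh49::Q24P, nam8D, mud1D and WT, and was higher than in starved WT by 1.30 ± 0.144, 1.74 ± 0.144 and 1.32 ± 0.144 in hsh49::Q24P, nam8D and mud1D. The difference between the responses was tested for each mutant and is 1.33 ± 0.204, 1.90 ± 0.204 and 1.48 ± 0.204 in the same order. With spike-in scaling the difference between the responses was 0.51 in hsh49::Q24P and 0.90 in mud1D, neither of them called, and the starvation difference of hsh49::Q24P from WT was 0.88, also not called.

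The proportion of the pair of SAM synthetase genes differed between genotypes. SAM1 made up 67.4, 80.5 and 70.2% of their summed TPM in hsh49::Q24P starvation, 71.6, 76.3 and 75.5% in nam8D, 68.2, 72.4 and 76.2% in mud1D, and 50.1, 50.4 and 49.9% in WT. In log phase the means were 61 ± 1.6% in hsh49::Q24P, 60.9 ± 1.3% in nam8D, 62.1 ± 2% in mud1D and 58.1 ± 2.96% in WT (SD, n = 3). The starved mutants and starved WT did not overlap. The coding sequences are 83.2% identical, with identical runs of up to 59 bases, so the split of reads between them is uncertain. The sulfate permeases shifted too: SUL1 made up 59.1 ± 7.34, 65.6 ± 8.41 and 54.3 ± 1.94% of SUL1 plus SUL2 in hsh49::Q24P, nam8D and mud1D starvation and 90.4 ± 0.431% in WT starvation. In log phase the share lay between 76.7 and 82.2% in all 12 libraries. SUL1 and SUL2 are 69.1% identical, with runs of up to 24 bases. These shares are descriptions with no test.

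**Figure D4:**
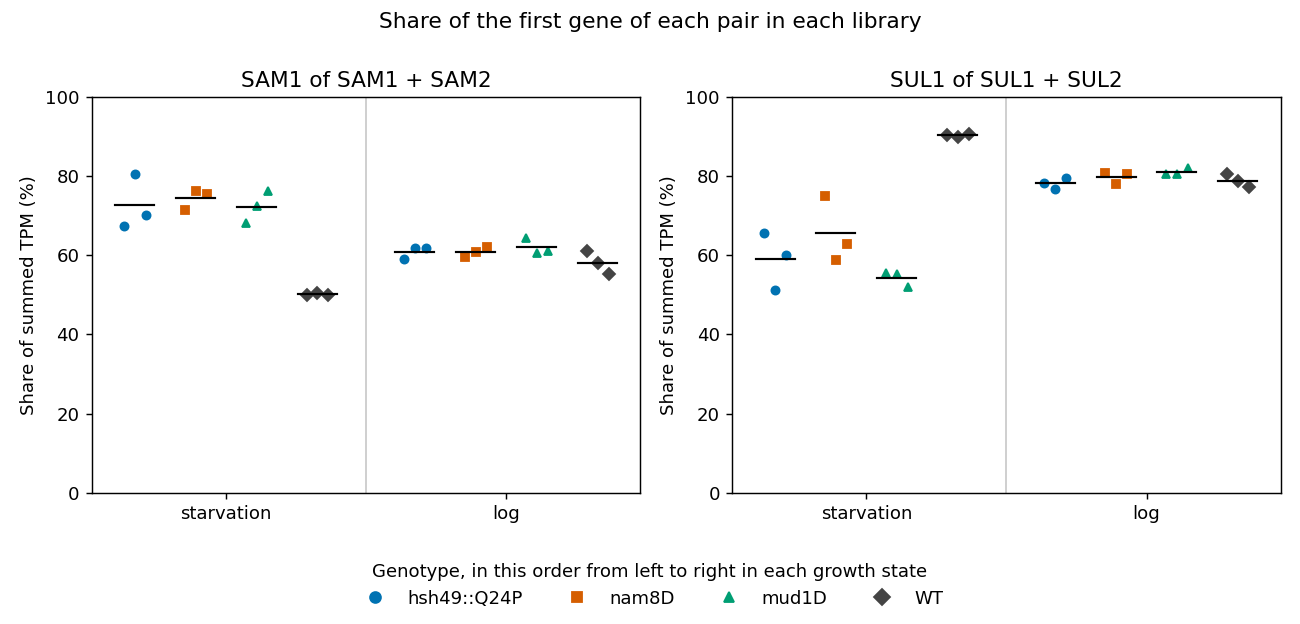
Share of SAM1 in the summed TPM of SAM1 and SAM2 (left) and of SUL1 in that of SUL1 and SUL2 (right), in percent, for each library. Points are libraries and bars are means, with hsh49::Q24P, nam8D, mud1D and WT from left to right in each growth state; starved WT has the lowest SAM1 share and the highest SUL1 share.

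SAH1, the hydrolase that returns S-adenosylhomocysteine to homocysteine, stood in starvation at 270, 314 and 254 TPM in hsh49::Q24P, 355, 352 and 367 TPM in nam8D, 260, 300 and 350 TPM in mud1D, and 447, 366 and 453 TPM in WT. Its log phase levels were 1397, 1398 and 1305 TPM in hsh49::Q24P, 1256, 1315 and 1332 TPM in nam8D, 1110, 1185 and 1313 TPM in mud1D, and 1301, 1486 and 1462 TPM in WT. SAH1 fell in every genotype, by 2.29, 1.86, 1.99 and 1.75 in hsh49::Q24P, nam8D, mud1D and WT, and no mutant passed the size called against starved WT. SAM4, a homocysteine methyltransferase that uses SAM, fell by 1.32, 1.54 and 1.48 in hsh49::Q24P, mud1D and WT, with -0.57 ± 0.147 in nam8D. MHT1, which uses S-methylmethionine, was called in no comparison and stood between 22 and 35.6 TPM.

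SAM3, the SAM permease, was the member called lower in a starved mutant than in starved WT. It stood at 159, 53.5 and 120 TPM in hsh49::Q24P starvation, 64.1, 45.2 and 52.7 TPM in nam8D, 123, 66.1 and 53.5 TPM in mud1D, and 127, 117 and 144 TPM in WT. It rose against log phase by 1.24 ± 0.284 in hsh49::Q24P, 1.16 ± 0.284 in mud1D and 1.74 ± 0.284 in WT, and was lower in nam8D than in WT starvation by 1.25 ± 0.284. The hsh49::Q24P and mud1D rises rest on the first starvation library of each and were 0.92 and 0.81 without it, 0.91 and 0.82 with the median gene set equal, and 0.14 and 0.29 with spike-in scaling. MMP1, the S-methylmethionine permease, averaged 60.5 ± 20.8, 49.3 ± 9.46 and 45.4 ± 7.66 TPM in starved hsh49::Q24P, nam8D and mud1D cells and 81.6 ± 3.11 TPM in WT starvation, with no call in any comparison.

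Of the 6 regulators, 4 rose in starvation in each of the 4 genotypes: MET4, MET28, MET32 and MET30. The share of all genes that rose was 28.5%, 27.4%, 28.2% and 26.2% in hsh49::Q24P, nam8D, mud1D and WT. MET28, the cofactor that holds Met4 on DNA with Cbf1, stood in starvation at 422, 201 and 264 TPM in hsh49::Q24P, 394, 291 and 284 TPM in nam8D, 241, 213 and 198 TPM in mud1D, and 191, 161 and 159 TPM in WT. The log libraries held 46, 58.3 and 49.2 TPM in hsh49::Q24P, 46.3, 53.2 and 48.7 TPM in nam8D, 49.4, 54 and 55.8 TPM in mud1D, and 64.1, 63.5 and 58.7 TPM in WT. Its rise was 2.45 ± 0.18, 2.67 ± 0.18, 2.01 ± 0.18 and 1.44 ± 0.18 in hsh49::Q24P, nam8D, mud1D and WT. Starvation and log libraries did not overlap for MET28 in any genotype.

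MET4, the activator itself, stood in starvation at 167, 142 and 166 TPM in hsh49::Q24P, 177, 162 and 162 TPM in nam8D, 171, 157 and 140 TPM in mud1D, and 106, 104 and 111 TPM in WT. During log growth the levels were 37.6, 37.5 and 41.8 TPM in hsh49::Q24P, 37.8, 37 and 36.4 TPM in nam8D, 37.2, 37.2 and 36.2 TPM in mud1D, and 40.3, 35.5 and 37.6 TPM in WT. MET4 rose by 1.99 ± 0.0755, 2.14 ± 0.0755, 2.05 ± 0.0755 and 1.48 ± 0.0755 in hsh49::Q24P, nam8D, mud1D and WT. Against starved WT it was higher by 0.56 ± 0.0755, 0.63 ± 0.0755 and 0.53 ± 0.0755 in hsh49::Q24P, nam8D and mud1D, past the adjusted p of the test and under the size called.

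MET32, the zinc-finger protein that recruits Met4, stood in starvation at 119, 129 and 90.9 TPM in hsh49::Q24P, 138, 140 and 138 TPM in nam8D, 101, 118 and 134 TPM in mud1D, and 59.8, 65.6 and 75.6 TPM in WT. In log phase it stood at 33.7, 25.4 and 25.2 TPM in hsh49::Q24P, 25.7, 25.5 and 23.1 TPM in nam8D, 23.1, 25.5 and 30.7 TPM in mud1D, and 33.6, 33.7 and 29.9 TPM in WT. MET32 rose by 1.96 ± 0.136, 2.44 ± 0.136, 2.11 ± 0.136 and 1.02 ± 0.136 in hsh49::Q24P, nam8D, mud1D and WT, and the WT rise was 0.93 without the third WT starvation library and 0.73 with spike-in scaling. It was called higher than starved WT in nam8D, by 1.05 ± 0.136, and stood at 0.97 without the first WT starvation library and at 0.62 with spike-in scaling, not called. MET31, its paralog, was called in no comparison, and its levels lay between 13 and 22.7 TPM.

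MET30, the ubiquitin ligase subunit that restrains Met4, ran the other way between genotypes. It averaged 149 ± 16.5, 145 ± 2.38 and 142 ± 8.93 TPM in starved hsh49::Q24P, nam8D and mud1D cells and 223 ± 15.5 TPM in WT starvation. MET30 rose by 1.32 ± 0.0803, 1.31 ± 0.0803, 1.30 ± 0.0803 and 1.85 ± 0.0803 in hsh49::Q24P, nam8D, mud1D and WT. The mutants stood at -0.59 ± 0.0803, -0.61 ± 0.0803 and -0.64 ± 0.0803 against starved WT, under the size called. CBF1 averaged 78.1 ± 10.7, 63.9 ± 4.38 and 67.6 ± 9.39 TPM in the starved mutants and 88.9 ± 5.19 TPM in starved WT, with no call. With the median gene set equal, the WT rises of MET28, MET4 and MET32 were 0.96, just under 1 and 0.54 and not called, and those of MET30 in hsh49::Q24P, nam8D and mud1D were 0.98, 0.89 and 0.96. With spike-in scaling those of MET30 were 0.21, 0.24 and 0.43 in hsh49::Q24P, nam8D and mud1D, also not called, and MET4 and MET32 stood at 0.89 and 0.87 in hsh49::Q24P.

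Summed over steps, members of sulfate uptake and reduction made up 1546, 1129 and 1136 TPM in hsh49::Q24P starvation, 2349, 1632 and 1707 TPM in nam8D, 1168, 1166 and 1337 TPM in mud1D, and 810, 722 and 949 TPM in WT. Synthesis and uptake made up 3152 ± 320, 4054 ± 482 and 3114 ± 172 TPM in starved hsh49::Q24P, nam8D and mud1D cells and 1521 ± 154 TPM in WT starvation (SD, n = 3). Their log phase means were 4099 ± 265, 3968 ± 157 and 3931 ± 429 TPM in the mutants and 4294 ± 246 TPM in WT. The SAM cycle made up 1296 ± 109, 1584 ± 67.7 and 1272 ± 151 TPM in the starved mutants and 1165 ± 127 TPM in starved WT, against 3977 TPM or more on average in every log group. The regulators made up 813 ± 141, 857 ± 73.2 and 720 ± 38 TPM in the starved mutants and 676 ± 25.4 TPM in starved WT, and 261 TPM or less on average in log phase. All members together held 0.653%, 0.839% and 0.633% of the library in hsh49::Q24P, nam8D and mud1D starvation, 0.419% in WT starvation, and between 0.978% and 1.09% in log phase. An abundant gene weighs more in such a sum, which carries no test.

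**Figure D5:**
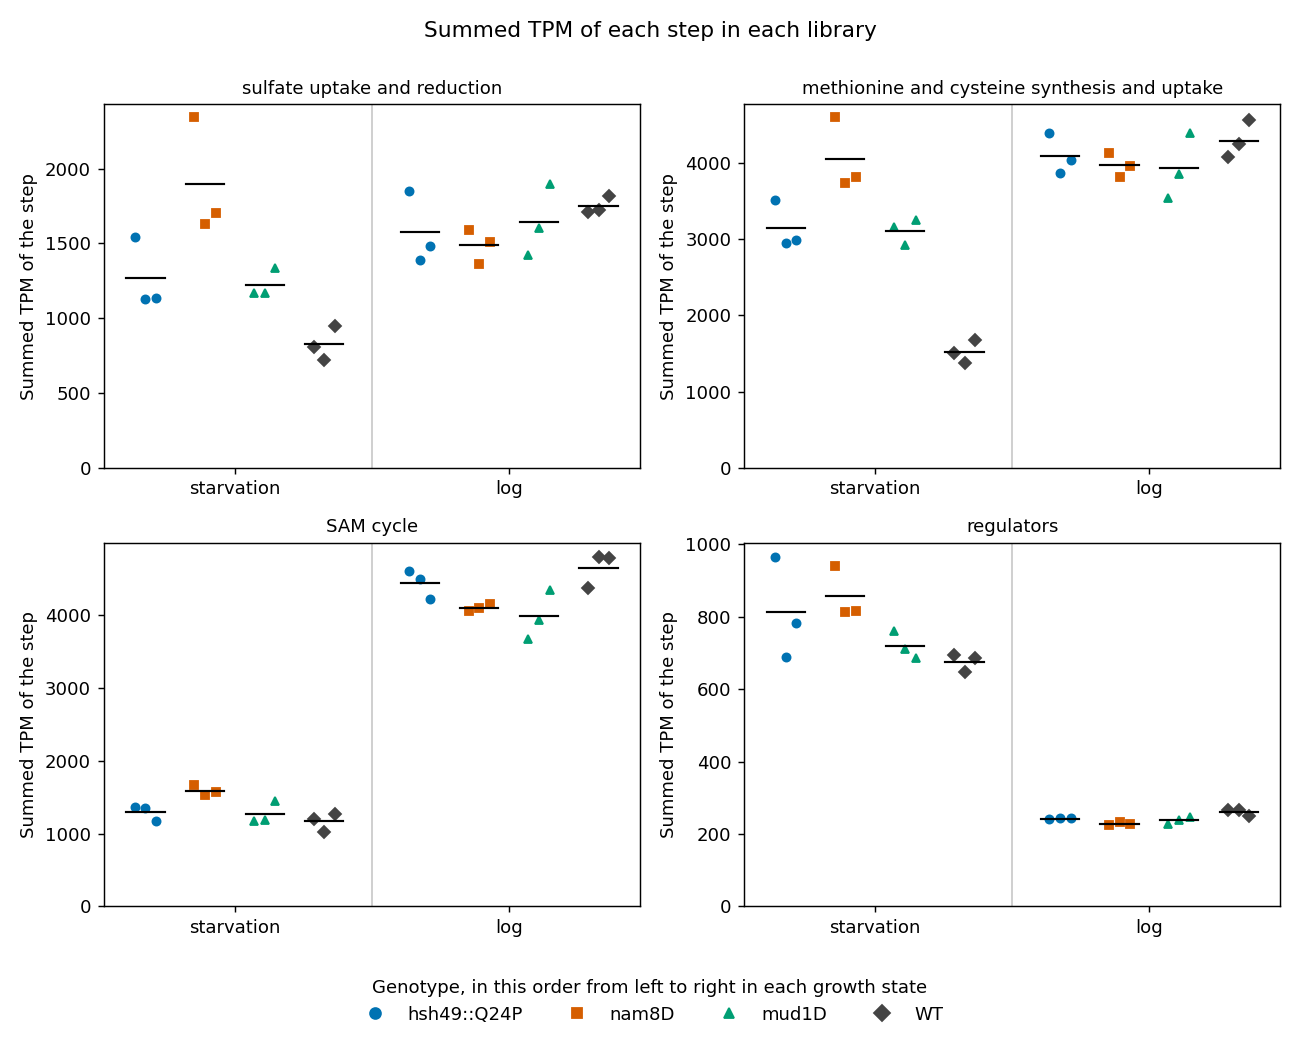
Summed TPM of the members of each step in every library. Points are libraries and bars are means, with hsh49::Q24P, nam8D, mud1D and WT from left to right in each growth state; starved WT lies below all starved mutants in the upper panels.

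Few members were called between the starved mutants. These comparisons were added after the values had been seen. No member was called between nam8D and hsh49::Q24P (1.19% of all genes were) or between mud1D and hsh49::Q24P (0.264%), and SUL1 alone was called between nam8D and mud1D (1.12%), higher in nam8D by 1.12 ± 0.237. Without the first nam8D starvation library, which had 496 TPM, that value was 0.79, and fitting only the groups compared gave a limma adjusted p of 0.0887. Without the size threshold, nam8D was higher than hsh49::Q24P for 15 members and lower for 2, against 16% and 8.47% of all genes. It was higher than mud1D for 17 members and lower for none, against 15.1% and 8.54%. Between mud1D and hsh49::Q24P none passed, against 0.837% of all genes, and 3 members had an unadjusted p under 0.05, out of 758 genes. The counts of 15 and 17 members rest on a spread shared by all 8 groups and were not recomputed with only the groups compared. With the size threshold, nam8D against hsh49::Q24P called 12 genes higher and 65 lower, and 2 and 8 when only those groups were fitted. For nam8D against mud1D the counts were 25 and 47, and 6 and 8 in that fit.

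Another 39 genes of sulfur and one-carbon metabolism were counted in the same way. Against starved WT 3 were higher and 7 lower in hsh49::Q24P (3.94% and 7.41% of all genes), 4 and 6 in nam8D (4.39% and 7.86%), and 4 and 8 in mud1D (4.57% and 8.87%), and limma called none in log phase. OPT1, which imports glutathione, was higher by 1.28 ± 0.0948, 1.33 ± 0.0948 and 1.49 ± 0.0948 in hsh49::Q24P, nam8D and mud1D. DUG3, of the cytosolic glutathione-degrading complex, was higher by 1.06 ± 0.136, 1.12 ± 0.136 and 1.06 ± 0.136 and IRC7, a cysteine desulfhydrase, by 2.03 ± 0.188, 2.50 ± 0.188 and 1.87 ± 0.188. On the lower side in all 3 mutants were SHM2, a serine hydroxymethyltransferase, SPE3, the spermidine synthase, MRI1 of methionine salvage, the peptidase DUG1, the thioredoxin TRX1 and the adenosine kinase ADO1. TRX1 differed from WT by -1.85 ± 0.0908, -2.00 ± 0.0908 and -2.16 ± 0.0908 and ADO1, which removes the adenosine that Sah1 releases, by -1.20 ± 0.0917, -1.22 ± 0.0917 and -1.34 ± 0.0917. HOM2, an enzyme of homoserine synthesis upstream of MET2, was called only in nam8D, at 1.17 ± 0.117. JLP1, which takes sulfur from sulfonates, rose in starvation in all 4 genotypes, by 1.95, 1.95, 2.23 and 1.88 in hsh49::Q24P, nam8D, mud1D and WT. Against log phase OPT1 was called lower in all 4 genotypes, and IRC7 in hsh49::Q24P, mud1D and WT. Higher than starved WT therefore means a smaller fall for OPT1. Values of these 39 genes under the other scalings are not given here.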

How the data were processed

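The deposited table holds TPM from the authors for 8009 lines and 24 libraries, between 999639 and 999881 in total per library. Per the submitters' processing notes FastQC 0.11.9, Trimmomatic 0.39 and STAR 2.7.9a were used. The genome build, the gene annotation, the strand setting and how reads shared by gene copies were split are not given in the sources used here. Lines that name no gene, 92 spike-in RNAs among them, were left out, and genes with at least 1 TPM in at least 3 libraries were tested. Log2(TPM + 1) was fitted with limma 3.58.1 in R 4.3.3, with 8 group means and an intensity trend, and p-values were adjusted by Benjamini-Hochberg over all 6449 genes. A log2 fold change with the pseudocount of 1 understates the change of low genes. The pipeline was tested on simulated data. Members and lists were chosen with earlier results of these data known. Values per library are given for the 3 members of each step with the largest mean absolute starvation difference, and other members by means, ranges and counts; SUL1 and SAM3 were added for single libraries, and the genes named outside the members were chosen after their values were seen. Replicate numbers were checked for pairing by the correlation of deviations from group means, between same-numbered libraries only. All 3 correlations were over 0.1 only for nam8D against hsh49::Q24P starvation (0.144, 0.141 and 0.201). Without differently numbered libraries beside them these values do not show a pairing. Alternatives were pseudocounts of 0.1 and 5, no filter, a minimum of 10 TPM, median centring, spike-in scaling, a replicate block, only the groups compared, no trend and leaving out each library. A further alternative left out the 2 hsh49::Q24P log libraries with most LEU2. Comparisons between mutants were added after seeing the data. The labels call the 3 samples of a group biological replicates. The p-values and SEs rest on 1 spread between replicates per gene, shared by all 8 groups and moderated across genes by limma. They do not measure the spread of the compared groups alone, so a gene has the same SE in each comparison of 1 group with another. Promoter windows and coding sequences came from NCBI RefSeq R64, whose gene identifiers match all 35 members. Figures were drawn in Python 3.11.15 with matplotlib 3.10.9.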

Additional observations from a re-analysis of the deposited data

Results flagged for a closer look

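The starvation response of a mutant differed from that of WT, by the interaction term of the limma fit, for 17 members in at least 1 mutant, and these differences are given as log2 values, the mutant's response minus that of WT. The mutant comparisons share the WT libraries. In sulfate uptake and reduction the values in hsh49::Q24P, nam8D and mud1D were 2.32, 2.89 and 2.41 for the permease SUL2, 1.51, 2.03 and 1.50 for MET14, 1.92, 2.45 and 1.63 for MET16, 1.00, 1.82 and 1.17 for MET5, and 1.43, 2.34 and 1.63 for MET1. MET22 differed in nam8D, by 1.43. In synthesis and uptake the values in the same order were 2.35, 2.38 and 2.13 for MET2, 1.42, 2.06 and 1.49 for MET17, 1.58, 2.08 and 1.55 for MET13, 1.12, 2.22 and 1.68 for STR3, 2.28, 2.59 and 2.20 for the permease MUP1, and 1.49, 1.67 and 1.65 for MUP3. MET6 differed in nam8D, by 1.05. In the SAM cycle SAM1 differed by 1.33, 1.90 and 1.48, and SAM3 in nam8D by -1.25. Among the regulators MET28 differed by 1.01 in hsh49::Q24P and 1.23 in nam8D, and MET32 by 1.42 in nam8D and 1.09 in mud1D. With spike-in scaling many of these were not called, among them MET28 at 0.20 in hsh49::Q24P and 0.45 in nam8D, MET5 at 0.19 and STR3 at 0.32 in hsh49::Q24P, and MET6 at 0.27 in nam8D. Without the first hsh49::Q24P starvation library the hsh49::Q24P values of MET5 and MET28 were 0.78 and 0.72, and without the first nam8D starvation library the MET6 value was 0.90.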

How the results depend on the processing

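Over 156 called member differences and 2629 values under alternatives, 2523 kept their call, 106 lost it and 0 changed sign. Spike-in scaling ended 54 of the 156 calls, median centring 15, a pseudocount of 5 ended 6 and fitting only the groups compared 1. The cause was not tested. The spike-in total differed between replicates, at 14600, 22810 and 20760 TPM in hsh49::Q24P starvation and 13120, 13360 and 16280 TPM in WT starvation. The count for nam8D against mud1D starvation, 1 member, was 0 with spike-in scaling and with only the groups compared. Leaving out 1 library gave 16 to 20 members for starvation against log in hsh49::Q24P, 16 to 18 in nam8D, 18 to 20 in mud1D and 20 to 21 in WT, and 0 for each mutant against WT in log phase. In starvation against WT it gave 10 to 11, 14 to 16 and 11 to 12 in hsh49::Q24P, nam8D and mud1D, and for the responses 11 to 15, 16 to 20 and 12 to 14. Between starved mutants it gave 0 to 1 for nam8D against hsh49::Q24P, 0 to 1 for nam8D against mud1D and 0 for mud1D against hsh49::Q24P. Same-numbered libraries correlated between -0.671 and 0.463 in their deviations from group means. All 3 pairs were over 0.1 in nam8D against hsh49::Q24P starvation (0.144, 0.141 and 0.201), where 0 members were called with and without the replicate block, and in no other comparison. With the replicate block no member call was lost, with 18, 17, 19 and 21 members for starvation against log in hsh49::Q24P, nam8D, mud1D and WT, 0 in log phase, 11, 15 and 11 against starved WT, and 13, 17 and 13 for the responses. Near-threshold calls rest on single libraries, among them MET32 in WT at 0.97 without the third log library and MET5 in the mud1D response at 0.96 without the first mud1D log library. TPM keeps no depth, so counting error is unknown.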
